A study of Mus musculus with 10 samples.

Results

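Gene-end peaks were the peaks of open chromatin that lay within 1 kb of either outer bound of a protein-coding gene in the RefSeq annotation of GRCm38. Of 122984 peaks in the deposited table, 16252 (13.2%) met this rule, and 16055 of them passed the filter on low counts and were tested. Another 102899 tested peaks served as the comparison and are called other peaks. The rule used gene positions only, not the measured values. Within the tested and untested members, 10654 lay within 1 kb of a bound listed as a gene start, 2305 lay only near the far bound, and 3293 lay near a bound of a gene whose strand was not listed. A listed start fell inside 8310 of the members, so the label covers promoters and also the downstream ends of genes. A further 1295 peaks outside the rule also held a listed start, so the other peaks are not free of promoters.

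A promoter is the stretch of DNA around a gene's start where RNA polymerase II is assembled. Many promoters of broadly used genes are rich in CpG dinucleotides and stay open in most cell types, whereas promoters poor in CpG and distal enhancers more often open or close with cell state. Forskolin switches on adenylyl cyclase and so raises cAMP, which activates protein kinase A and the CREB family of transcription factors. Rosiglitazone binds and activates PPARγ, the nuclear receptor that drives adipocyte differentiation. In ATAC-seq, a transposase inserts sequencing adapters into accessible DNA, and the reads over a peak measure how open it is.

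The cells were adipocytes differentiated from MAP cells, an immortalized line of mouse adipocyte progenitors. The 10 libraries formed 5 groups of 2. These were control (S1, S2), forskolin for 4 hours (S3, S4), forskolin for 1 day (S5, S6), forskolin for 3 days (S7, S8) and rosiglitazone for 3 days (S9, S10). The labels call the cell type progenitors, although the agents were added once the cells had differentiated. All 5 groups, control included, had received insulin, isobutylmethylxanthine, dexamethasone and rosiglitazone during differentiation, so the control cells had met rosiglitazone before. The forskolin dose was not given in the sources used here, and the model is 1 immortalized line. The labels do not say if paired libraries come from different dishes, so the p-values rest on a spread that may be technical.

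Library totals ran from 10410233 to 18935287 counts in peaks. Of 8 adipocyte marker genes, 7 had a tested gene-end peak, and their summed level ran from 218 to 312 CPM (counts scaled to library size after TMM). The same sum was 29.7 to 48.1 CPM for 5 of 7 progenitor markers, 12.6 to 20.2 CPM for 2 of 5 macrophage markers and 7.7 to 11.5 CPM for 2 of 4 endothelial markers. The defining macrophage genes Adgre1, Ptprc and Itgam had no tested gene-end peak. The 3-day forskolin library S8 stood apart from its partner S7, and counts that rest on them are given with and without each where they moved most.

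The following promoters lie at gene-end peaks on which the results turn, and each is shown as the 250 bases before the RefSeq start in GRCm38.p6, 5′ to 3′ on the gene's strand. Capitals mark 2 motifs on either strand: TGANTCA, with any base at N, and the CRE core TGACG, the shorter form of the CREB site. TGANTCA is used here as a loose pattern for the AP-1 site of Fos and Jun proteins. Its versions were not counted apart. Hal and Cgref1 are shown because their peaks rose with forskolin and hold an AP-1 match, and Fgf2 because its peak rose without one; their log2 fold changes at 4 hours were 1.02 ± 0.14 for Cgref1 and 0.78 ± 0.14 for Fgf2 (SE, n = 2 per group). Igfals and Adipoq stand for promoters that fell, Acaa1b for one that rose with rosiglitazone, and Polr2a for the CpG-rich promoters of broadly used genes. Cgref1, Fgf2, Adipoq and Polr2a were picked for display after their values were seen.
Hal, chr10:93488518-93488767, plus strand: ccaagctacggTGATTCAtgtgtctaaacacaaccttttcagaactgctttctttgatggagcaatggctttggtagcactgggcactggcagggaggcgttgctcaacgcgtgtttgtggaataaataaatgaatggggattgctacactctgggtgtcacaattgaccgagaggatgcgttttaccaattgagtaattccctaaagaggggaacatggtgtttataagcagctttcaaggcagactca
Cgref1, chr5:30945481-30945730, minus strand: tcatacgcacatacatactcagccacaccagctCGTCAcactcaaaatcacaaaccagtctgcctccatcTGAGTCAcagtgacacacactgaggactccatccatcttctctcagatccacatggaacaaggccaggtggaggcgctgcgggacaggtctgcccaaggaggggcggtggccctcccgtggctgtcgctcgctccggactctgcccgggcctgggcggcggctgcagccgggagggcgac
Fgf2, chr3:37348403-37348652, plus strand: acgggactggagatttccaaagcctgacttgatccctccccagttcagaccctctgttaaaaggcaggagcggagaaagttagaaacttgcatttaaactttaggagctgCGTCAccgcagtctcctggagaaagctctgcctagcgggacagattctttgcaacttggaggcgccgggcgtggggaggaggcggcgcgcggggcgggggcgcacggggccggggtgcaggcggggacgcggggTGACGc
Igfals, chr17:24877594-24877843, plus strand: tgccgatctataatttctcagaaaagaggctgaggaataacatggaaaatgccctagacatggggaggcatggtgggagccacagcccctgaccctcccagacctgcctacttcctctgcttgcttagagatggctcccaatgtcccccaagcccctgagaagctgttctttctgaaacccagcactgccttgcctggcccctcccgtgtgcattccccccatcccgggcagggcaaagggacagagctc
Adipoq, chr16:23146286-23146535, plus strand: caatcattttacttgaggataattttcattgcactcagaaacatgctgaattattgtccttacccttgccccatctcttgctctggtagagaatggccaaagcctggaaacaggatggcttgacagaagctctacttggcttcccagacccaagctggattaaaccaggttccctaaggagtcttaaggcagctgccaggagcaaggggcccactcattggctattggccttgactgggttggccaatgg
Acaa1b, chr9:119157094-119157343, minus strand: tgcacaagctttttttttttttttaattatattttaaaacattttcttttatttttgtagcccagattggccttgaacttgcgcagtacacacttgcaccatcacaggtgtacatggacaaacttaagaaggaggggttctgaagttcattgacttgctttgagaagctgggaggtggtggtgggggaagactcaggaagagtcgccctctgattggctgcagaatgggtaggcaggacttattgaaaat
Polr2a, chr11:69758634-69758883, minus strand: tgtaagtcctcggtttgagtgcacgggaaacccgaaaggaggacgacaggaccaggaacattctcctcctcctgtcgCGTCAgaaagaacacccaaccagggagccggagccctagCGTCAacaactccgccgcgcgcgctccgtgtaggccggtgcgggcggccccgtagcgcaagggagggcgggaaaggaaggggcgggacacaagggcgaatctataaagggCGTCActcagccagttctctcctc
The AP-1 match starts 239 bases before the start in Hal and 180 bases before it in Cgref1. Fgf2 holds 2 CRE cores and Polr2a holds 3, whereas Igfals, Adipoq and Acaa1b hold neither motif in this window.

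Gene-end peaks were far more open and wider than the rest before any treatment was given. Their median control level was 18.8 CPM (quartiles 4.04 and 45), against 2.18 CPM (1.03 and 4.97) for other peaks, and their median width was 767 bp against 342 bp. All tested peaks were therefore split by the mean CPM of S1 and S2 into 10 bins of equal size, and gene-end peaks were compared with other peaks of the same bin. The highest bin, above 20.8 CPM, held 7658 gene-end peaks (47.7% of them) and 4238 other peaks. Within bins 1 to 8 the median levels of both kinds were nearly equal, for example 6.87 and 6.63 CPM in bin 8. They were 14.2 and 12.4 CPM in bin 9, and in bin 10 the gene-end peaks were higher, at 46.6 against 31.8 CPM, so the match was incomplete there. The spread between the 2 libraries of a group, averaged over the 5 groups, was close at the same levels. The interquartile range of their log2 ratio was 0.375 over gene-end peaks and 0.393 over other peaks. In bin 10 it was 0.18 and 0.22.

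After 4 hours of forskolin, gene-end peaks rose far less often than other peaks of the same control level, while the shares that fell were closer. Of 16055 gene-end peaks, 895 (5.57%) rose and 3715 (23.1%) fell, against 18.5% risen and 12.9% fallen over all tested peaks (edgeR quasi-likelihood test over all 10 libraries, Benjamini-Hochberg adjusted p below 0.05). Weighted to the same levels, 15.6% of other peaks rose and 25.8% fell. The gene-end share of rises was the lower one in 10 of 10 bins. In bin 10, 36 gene-end peaks (0.47%) rose against 10.6% of the other peaks, and 36.3% fell against 37.0%. The falls of gene-end peaks had a median log2 fold change of -0.41, against -1.08 for other peaks that fell. Most of that gap went with level: weighted to the same levels the medians were -0.50 and -0.62. Of the gene-end falls 90.6% were smaller than 2-fold. The rises had medians of 1.23 and 1.29 at the same levels. The median log2 fold change over gene-end peaks was -0.22 against 0.08 over other peaks, a difference of -0.30, which shrank to -0.07 at matched levels, or to -0.16 with bins cut on all 10 libraries. Only 211 of the peaks that overlap a bound rose. The falls numbered 1141 when S2 was left out, 1126 for S3 and 2007 for S4, and 1978 when offsets followed a trend in level. With these offsets rises made up 33.5% of the called gene-end peaks, against 19.4% otherwise, and with library size as the only scaling they made up 32.0%.

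**Figure D1:**
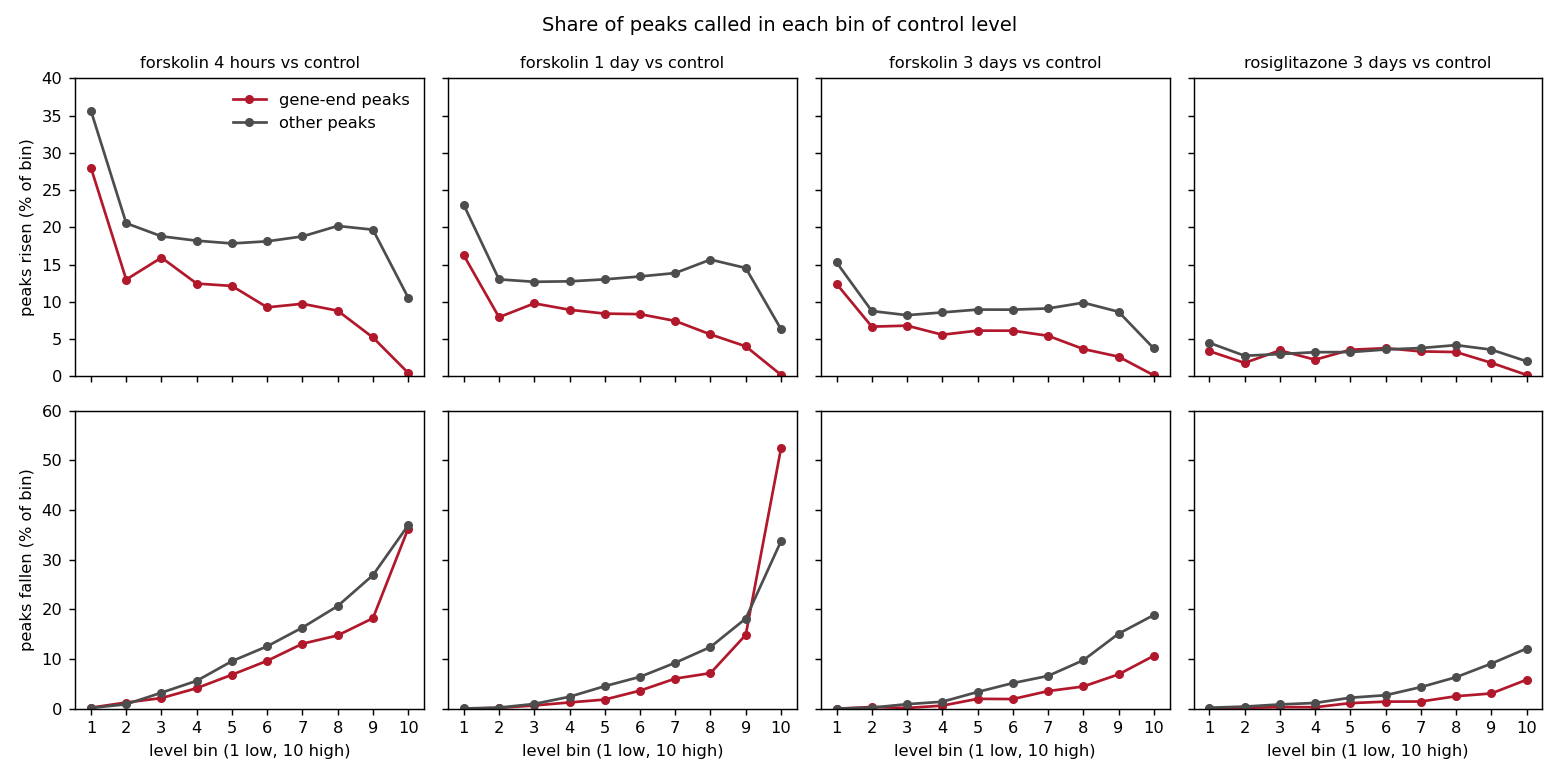
Share of peaks called risen (upper row) and fallen (lower row), in percent of the bin, against the bin of control level from 1 (lowest) to 10 (highest), for gene-end peaks (red) and other peaks (grey) in the 4 comparisons with control. In the 3 forskolin comparisons the red line of rises lies below the grey one in all 10 bins, and in bin 10 at 1 day the gene-end share of falls (52.4%) lies above that of other peaks (33.7%).

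After 1 day of forskolin the same shortage of rises was seen, together with a broad and shallow fall of the most open gene-end peaks. Here 612 gene-end peaks (3.81%) rose and 4591 (28.6%) fell, against 12.9% and 9.84% of all tested peaks. At the same levels 10.6% of other peaks rose and 21.1% fell. Falls were less frequent among gene-end peaks in 9 of 10 bins, and bin 10 was the exception. There 4015 of 7658 gene-end peaks (52.4%) fell, against 33.7% of other peaks, with medians of -0.33 and -0.21 (log2 fold change). Bin 10 is also the bin where gene-end peaks started from a higher control level, and the part of that gap in the excess of falls was not tested. Of the falls 97.0% were smaller than 2-fold. The difference of medians was -0.36 over all levels and -0.09 at matched levels, or -0.18 with bins cut on all 10 libraries. The falls numbered 1545 without S2, 1303 without S5, 2309 with library size as the only scaling and 1674 with trended offsets. The rises numbered 358 without S2, 364 without S5, 407 without S6, and 954 when scaled by library size only. Rises made up 11.8% of the calls, 29.9% with trended offsets and 29.2% when scaled by library size only. With trended offsets 10.4% of gene-end peaks fell against 13.7% of other peaks at the same levels, so the order turned. It also turned without S2 (9.54% against 10.5%) and without S5 (8.05% against 10.4%).

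After 3 days of forskolin fewer gene-end peaks differed from control, and the count depended on which of the pair S7 and S8 was kept. With both, 433 (2.70%) rose and 1117 (6.96%) fell, against 8.49% and 5.34% of all tested peaks. Other peaks of the same level rose in 6.64% and fell in 13.0% of cases. Without S8 the falls numbered 3568, or 22.0% of gene-end peaks against 14.8% of other peaks at the same levels. Without S7 they numbered 332. The counts of falls were also lower without S1 (574), S2 (250) or S9 (623), and the rises were fewer without S1 (275), S2 (253) or S7 (245). Rises made up 27.9% of the calls, 46.0% with trended offsets and 52.1% with library size alone. The matched difference of medians was -0.03, with -0.09 when S8 was left out, 0.03 for S7 and 0.0014 for S2, and -0.08 with bins cut on all 10 libraries.

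Gene-end peaks took a smaller share of the counts in each of the 6 forskolin libraries than in either control library, by a small margin in S8. The share was 45.1% and 46.6% in control, 41.2% and 42.0% after 4 hours of forskolin, then 40.2% and 41.9% after 1 day; rosiglitazone gave 44.1% and 45.7%. At 3 days of forskolin the share was 41.4% in S7, within the range of the earlier forskolin libraries, and 45% in S8, within the range of the rosiglitazone and control libraries. The level gap, which is the median log2 CPM of gene-end peaks minus that of other peaks in the same control bin, was 0.28 and 0.31 in control, 0.16 and 0.19 at 4 hours, and 0.13 and 0.19 at 1 day. It was 0.17 in S7, 0.33 in S8, and 0.24 and 0.31 with rosiglitazone. Neither measure overlapped between control and the libraries of 4 hours or 1 day. The bins were cut on the control libraries, so the gap in control shares its values with the bins. The spread within groups was 0.06 (pooled SD over the 5 pairs).

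**Figure D2:**
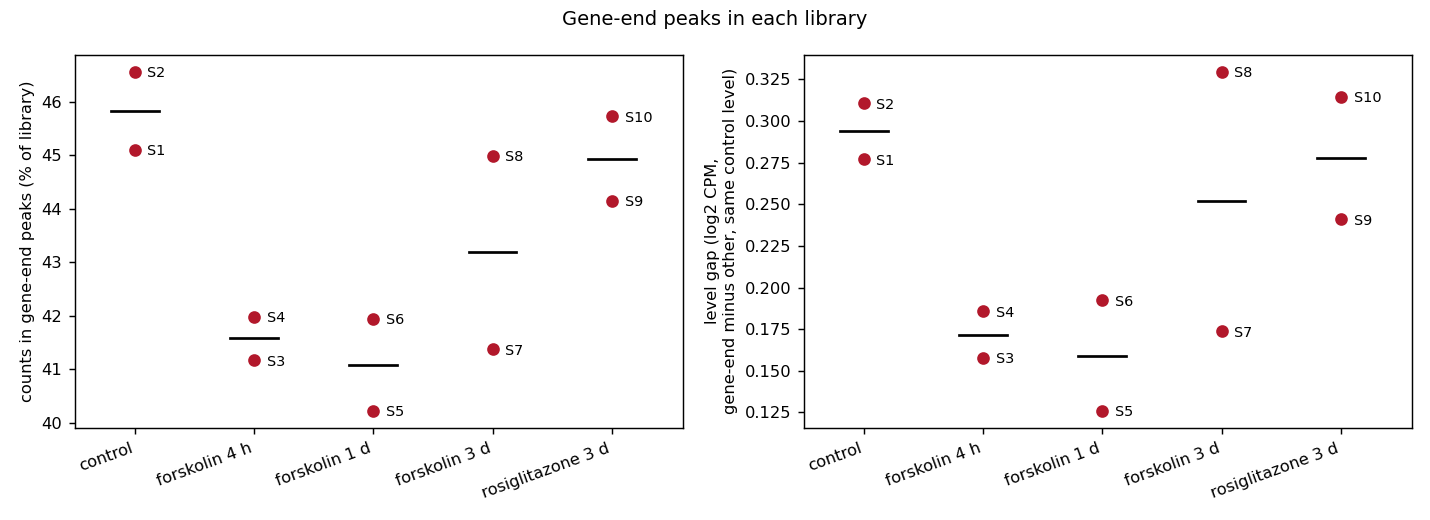
Share of each library's counts that fell in gene-end peaks (left, percent) and level gap of gene-end over other peaks of the same control bin (right, log2 CPM), by group; points are libraries, lines are means of 2, and the vertical axes do not start at 0. S3 to S7 lie between 40.2% and 42.0% on the left, and S8 lies at 45% with the control and rosiglitazone libraries.

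Rosiglitazone for 3 days moved few gene-end peaks. Against control 247 (1.54%) rose and 595 (3.71%) fell, with 3.22% and 3.34% over all tested peaks. At the same levels 2.85% of other peaks rose and 8.29% fell. The gene-end share of falls was lower in 10 of 10 bins, and that of rises in 7. The matched difference of medians was 0.01, and -0.02 without S10 or with bins cut on all 10 libraries. Without S2 the falls numbered 113 and without S9 they numbered 91, and they were 282 without S1 and 370 without S10. They numbered 1284 without S7 and 1290 without S8, neither of which is in the comparison, and the cause was not tested. The rises numbered 120, 136, 112 and 110 without S1, S2, S9 and S10. They made up 29.3% of the calls, 48.5% with trended offsets and 57.4% with library size alone.

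Comparisons that leave out the control libraries do not share values with the bins, and there too smaller shares of gene-end peaks were called at the same levels. Between forskolin and rosiglitazone at 3 days, 793 gene-end peaks (4.94%) were higher with forskolin and 1018 (6.34%) were lower, against 12.9% and 8.82% of all tested peaks. Other peaks of the same level were higher in 13.9% and lower in 13.1% of cases, and the gene-end share was the smaller one in 10 of 10 bins for both directions. Without S7 1109 were higher and 599 lower, and without S8 589 were higher and 1587 lower. Without S9 the counts were 490 and 443, and without S10 they were 555 and 459. Rises made up 64.9% of the calls without S7 and 27.1% without S8, against 43.8% with all libraries, 52.5% without S9 and 54.7% without S10, so the balance of directions turned when S7, S9 or S10 was left out. From 4 hours to 1 day of forskolin, 239 gene-end peaks (1.49%) rose and 253 (1.58%) fell, against 2.58% and 2.99% of all tested peaks. Of other peaks at the same levels 5.38% rose and 3.38% fell, and the gene-end share was the smaller one in 8 of 10 bins for each direction. There were between 74 and 86 rises and between 61 and 97 falls without S3, S4, S5 or S6, and the falls reached 494 without S7 and 502 without S8. Rises made up 48.6% of these calls and 62.5% with library size alone.

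The share of gene-end peaks that rose was below that of other peaks at the same levels in 17 of 17 settings for each of the 6 comparisons. The share of falls was lower in 17 of 17 settings for rosiglitazone against control and for the pairs without control, in 16 of 17 at 3 days of forskolin and in 14 of 17 at 4 hours. At 1 day it was lower in 3 of 17. The 17 settings are the fit reported here, 3 other scalings, DESeq2, no filter, a fit of the compared groups alone, and the omission of each library in turn. At 4 hours the order of falls turned in the fit of the compared groups alone (33.2% against 30.7%), without S7 (31.0% against 28.8%) and without S8 (30.8% against 28.8%).

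Gene-end peaks also changed within a narrower range than other peaks of the same level. At 4 hours the interquartile range of log2 fold changes was 0.47 over gene-end peaks and 0.75 over other peaks at the same levels. It was 0.43 and 0.61 at 1 day, 0.38 and 0.53 at 3 days (0.45 and 0.58 without S7, 0.44 and 0.60 without S8), and 0.40 and 0.49 with rosiglitazone. Between forskolin and rosiglitazone the ranges were 0.47 and 0.65 (0.54 and 0.71 without S7, 0.49 and 0.70 without S8), and between 1 day and 4 hours 0.38 and 0.46. The gap in width was largest at 4 hours and smallest from 4 hours to 1 day.

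**Figure D3:**
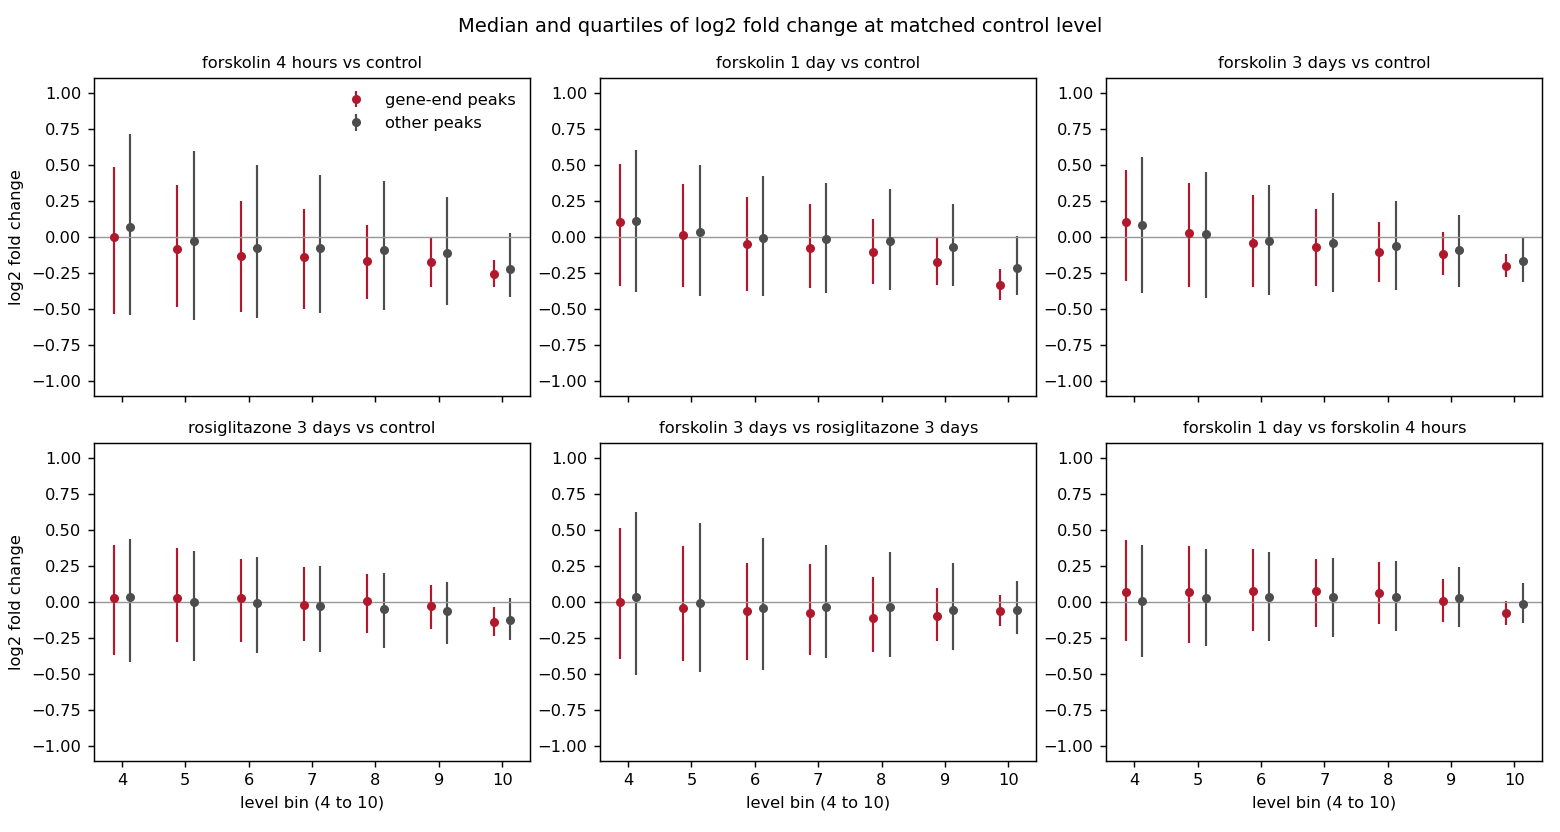
Median (point) and quartiles (bars) of log2 fold changes in bins 4 to 10 of control level for gene-end peaks (red) and other peaks (grey) in 6 comparisons; bins 1 to 3, with few counts, are not drawn. In bin 9 at 4 hours the quartiles run from -0.35 to 0.0022 for gene-end peaks and from -0.47 to 0.28 for other peaks.

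Peaks at different kinds of gene end differed in level and in calls. A listed promoter lay inside 8304 tested members, of which 5611 had a CpG-rich promoter (at least 55% GC and an observed to expected CpG ratio of at least 0.6 over 300 bases) and 2693 a CpG-poor one. CpG-rich promoter peaks were the most open, at a median of 43.3 CPM, and almost never rose: 24 of 5611 (0.43%) at 4 hours and 15 at 1 day. They fell in 31.4% of cases at 4 hours and 49.2% at 1 day. CpG-poor promoter peaks, at 21.8 CPM, rose in 3.12% and fell in 22.8% of cases at 4 hours. Peaks near the far bound only had a median of 2.84 CPM, and 15.1% of them rose and 13.8% fell at 4 hours. Of the 895 gene-end peaks that rose at 4 hours, 108 (12.1%) held a listed promoter, although 51.7% of all tested gene-end peaks did.

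For rises the same order was seen where the levels were close. In bin 9, where medians lay between 12.2 and 15.7 CPM, 1.34% of CpG-rich promoter peaks, 3.12% of CpG-poor promoter peaks, 12.8% of far-bound peaks and 19.7% of other peaks rose at 4 hours. Falls in that bin took 12.5%, 18%, 25.3% and 26.9% of the same classes, so there CpG-rich promoter peaks fell least often, unlike over all levels. In bin 10 at 1 day, 58.9% of CpG-rich promoter peaks fell, against 36.9% of CpG-poor ones, 36.8% of far-bound peaks and 33.7% of other peaks. The control level in bin 10 was also highest in the CpG-rich class, at 51.9 CPM, against 39.1, 32.4 and 31.8 CPM in the other 3. With rosiglitazone the matched difference of medians was 0.08 for CpG-poor and -0.02 for CpG-rich promoter peaks. Between forskolin and rosiglitazone 11.3% of CpG-poor promoter peaks were lower with forskolin and 3.53% higher, while 3.19% of CpG-rich ones were lower and 1.66% higher. Without S7 6.57% of the CpG-poor ones were lower and 3.79% higher, and 1.37% of the CpG-rich ones lower and 8.57% higher. Without S8 the shares were 14.1% and 2.49%, then 11.5% and 0.43%.

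Peaks farther from the bound were less open. The 10141 tested peaks that overlapped a bound had a median of 33.1 CPM, and 2.08% of them rose and 28.3% fell at 4 hours. Between 501 and 1000 bp from the bound, 2970 peaks had a median of 3.59 CPM, with 13.5% risen and 13.7% fallen. At the edge of the rule, 540 peaks at 901 to 1000 bp had a median of 3.69 CPM and 13.7% rises at 4 hours, and 529 peaks at 1001 to 1100 bp had 3.19 CPM and 15.9%.

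Promoters inside the peaks that rose with forskolin often held an AP-1 match. At 4 hours 43 of 108 such promoters (39.8%) held TGANTCA in the 300 bases around the start, against 3.54% of 2373 promoters in peaks that fell, 4.83% of 5823 in peaks not called and 6.99% of all 21263 listed promoters. Among CpG-poor promoters alone the shares were 46.4% of 84 risen, 7.83% of 613 fallen and 7.82% of 1996 not called. The share among risen promoters was 39.5% of 76 at 1 day and 38.5% of 52 at 3 days of forskolin (35.0% of 40 without S7 and 34.8% of 46 without S8). It was 15.2% of 46 with rosiglitazone, and 21.3% of the 188 that were higher with forskolin than with rosiglitazone, a share that was 6.86% of 583 without S7 and 31.9% of 91 without S8. The forskolin comparisons share their control libraries. A match is a description of the letters and not a mapped binding site.

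The sets also differed in other motifs and in CpG class, with 22.2% CpG-rich promoters in risen, 74.2% in fallen and 65.7% in uncalled peaks and 41.0% of all. The CRE core TGACG was found in 23.1% of promoters in risen, 31.5% in fallen and 33.7% in uncalled peaks at 4 hours, with 23.6% over all listed promoters. The full palindrome TGACGTCA, which contains the core on both strands, was found in 0 of 108 promoters in risen peaks, 3.16% in fallen, 3.80% in uncalled peaks and 2.23% of all. The GC box GGGCGG, bound by Sp1, was found in 38.9%, 76.0%, 68.0% and 46.2% of the same sets in that order. The ETS core CCGGAAG was found in 3.70%, 17.2%, 19.96% and 11.6%. The CCAAT box was at 38.9%, 39.7%, 39.2% and 38.2%, so its share was nearly the same in all of them. The TATA box TATAAA was at 11.1%, 6.36%, 6.23% and 12.6%, and the E-box CACGTG at 7.41%, 11.5%, 10.3% and 7.84%. All motifs were searched on both strands.

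**Figure D4:**
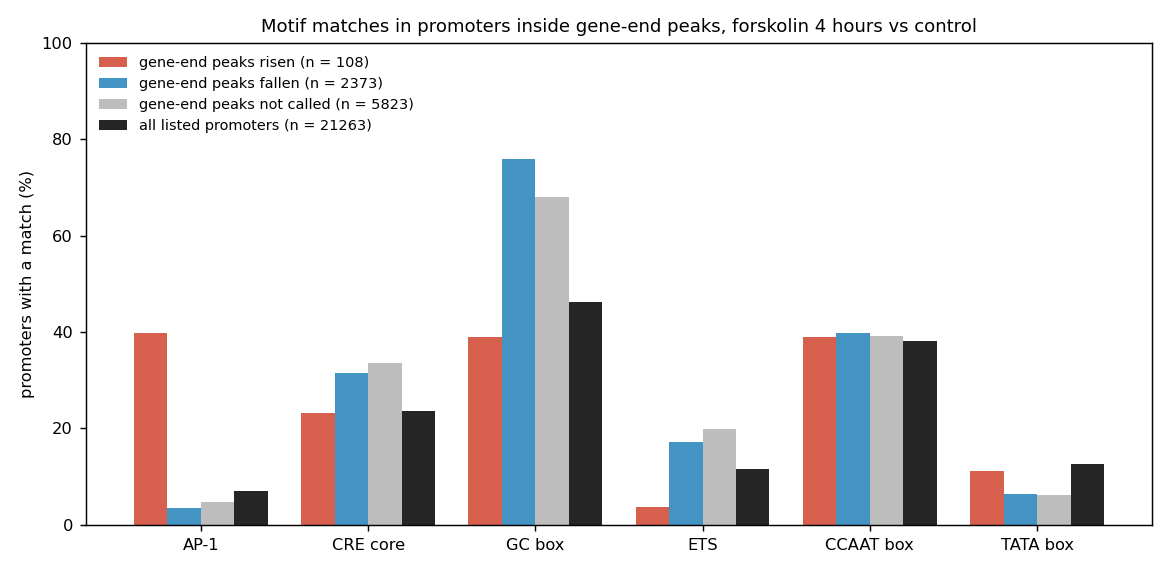
Percent of promoters with a match to each of 6 motifs, for promoters inside gene-end peaks that rose, fell or were not called after 4 hours of forskolin and for all listed promoters. AP-1 stands at 39.8% in risen peaks and at 3.54% to 6.99% in the other 3 sets.

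The peaks ranked by size of change here and in the following comparisons are those with a mean of at least 17.5 CPM over the 10 libraries whose groups did not overlap, and less open peaks can exceed them. Among these the largest rises at 4 hours were at Hal, Pde10a, Alkbh3 and Iffo1. The peak over the start of Hal (chr10:93488216-93489064, mm10), which encodes histidine ammonia-lyase, was at 8.59 and 10.7 CPM in control and at 32.6 and 30.5 CPM after 4 hours. It was at 30.7 and 24.4 CPM at 1 day, 24.9 and 23.7 CPM at 3 days, and 16.4 and 14.5 CPM with rosiglitazone. All 6 forskolin libraries lay above rosiglitazone, which lay above control. The log2 fold change was 1.70 ± 0.15 (SE, n = 2 per group) at 4 hours (edgeR adjusted p = 2.68e-15).

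The peak over the start of Pde10a (chr17:8524176-8525707), a phosphodiesterase that breaks down cAMP and cGMP, stood at 20.4 and 25.9 CPM in control. It reached 63.9 and 65.5 CPM at 4 hours, 48.5 and 51.6 CPM at 1 day and 39.0 and 43.2 CPM at 3 days, and was at 18.6 and 24.0 CPM with rosiglitazone. The forskolin libraries did not overlap the other groups, and the 4-hour log2 fold change was 1.48 ± 0.13 (edgeR adjusted p = 3.12e-15). Pde4b, another cAMP phosphodiesterase, had its most open gene-end peak 603 bp from the far bound at 0.404 and 0.165 CPM in control and 5.40 and 2.66 CPM at 4 hours, a log2 fold change of 3.83 ± 0.60. Its level rests on few counts. At Alkbh3, an enzyme that repairs alkylated nucleic acids, a peak 400 bp from the far bound rose by 1.39 ± 0.15 (log2) at 4 hours. At Iffo1, an intermediate filament family member, the peak over a bound rose by 1.22 ± 0.13, and that peak is also within reach of Gapdh.

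Among the same open peaks the largest falls at 4 hours were at Inpp5k, Txnip, Igfals and Clec2d. A peak 567 bp from the far bound of Inpp5k (chr11:75647683-75648298), an inositol phosphatase, was at 28.6 and 35.3 CPM in control and 6.19 and 6.29 CPM at 4 hours. It stood at 9.62 and 10.3 CPM at 1 day, 15.5 and 13.9 CPM at 3 days, and 26.1 and 24.1 CPM with rosiglitazone. The forskolin values lay below all others and were lowest at 4 hours, where the log2 fold change was -2.36 ± 0.15 (edgeR adjusted p = 2.24e-21). Txnip, which limits glucose uptake, had a peak 222 bp from its far bound (chr3:96562079-96562718) with 23.9 and 26.5 CPM in control and 6.39 and 8.10 CPM at 4 hours, a log2 fold change of -1.79 ± 0.15. The promoter peak of Igfals, the acid-labile subunit of circulating IGF complexes, fell from 31.9 and 36.0 CPM to 10.1 and 11.1 CPM (-1.68 ± 0.14). Clec2d, a C-type lectin, fell by 1.29 on the log2 scale.

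Among the open peaks Hal was still the largest rise and Inpp5k the largest fall at 1 day of forskolin. Other genes ranked beside them at 1 day or 3 days. Habp2, a hyaluronan-binding protease, had a peak 969 bp from its start that rose by 1.17 ± 0.14 (log2) at 1 day. P2ry14, a receptor for UDP-sugars, had a peak over its far bound at 11.9 and 10.3 CPM in control, 26.3 and 23.2 CPM at 1 day, and 25.2 and 32.1 CPM at 3 days. Both its 3-day libraries lay above control, with a log2 fold change of 1.37 ± 0.15, and rosiglitazone also raised it, by 0.87 ± 0.15. Nabp1, a single-stranded DNA binding protein, had a peak 374 bp from the far bound (chr1:51465342-51467424) at 27.4 and 31.8 CPM in control, 13.3 and 12.3 CPM at 1 day and 11.5 and 10.3 CPM at 3 days. Its log2 fold change was -1.21 ± 0.14 at 1 day and -1.44 ± 0.14 at 3 days. Aoc3, an amine oxidase abundant on adipocytes, fell by 1.19, and Phkg1, a subunit of phosphorylase kinase, fell by 1.13 on the log2 scale at 1 day. Each of these peaks had already moved the same way at 4 hours. Over all settings the 4-hour log2 fold change was 0.95 to 1.13 for Habp2 and 0.67 to 0.88 for P2ry14. It was -0.93 to -0.71 for Nabp1, -1.29 to -1.08 for Aoc3 and -1.39 to -1.096 for Phkg1.

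With rosiglitazone, peaks at Insig1, Fabp4 and Acaa1b rose. A peak 511 bp from the far bound of Insig1 (chr5:28079173-28081152), which holds back cholesterol synthesis by retaining SREBP proteins, was at 24.7 and 26.7 CPM in control and 79.1 and 70.4 CPM with rosiglitazone. The log2 fold change was 1.54 ± 0.13 (edgeR adjusted p = 6.39e-15). Fabp4, the fatty acid carrier of adipocytes, had a peak 473 bp beyond a bound that rose from 13.0 and 15.7 CPM to 29.4 and 30.7 CPM, a log2 fold change of 1.06 ± 0.14. The Acaa1b promoter peak, at a thiolase of peroxisomal fatty acid oxidation, was at 25.3 and 24.7 CPM in control, between 23.8 and 30.1 CPM in the 6 forskolin libraries, and at 46.0 and 42.8 CPM with rosiglitazone (0.83 ± 0.13). The rosiglitazone pair stood above all other libraries at all 3 peaks. The Insig1 peak also rose at 4 hours of forskolin, with a log2 fold change of 0.51 to 0.79 over all settings. It fell again from 4 hours to 1 day of forskolin, by -0.76 to -0.54. Among the open peaks ranked in this way the largest falls were at Lars2, a mitochondrial leucyl-tRNA synthetase (-1.11 ± 0.12), Sspn, sarcospan (-1.08 ± 0.14), Hp, haptoglobin (-0.90 ± 0.14), and Bmf, a cell death factor (-0.85 ± 0.12). Cfd, below that level limit, fell further (-1.38). The peaks at Lars2, Sspn, Hp and Bmf also fell at 4 hours of forskolin, so these falls were not particular to rosiglitazone. Over all settings the 4-hour log2 fold change was -1.02 to -0.51 for Lars2 and -0.99 to -0.68 for Sspn. It was -0.78 to -0.51 for Hp and -0.95 to -0.68 for Bmf. The Lars2 peak was the most open of these at 213 and 223 CPM in control over 391 bp, and whether reads from similar sequence elsewhere add to it was not tested.

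**Figure D5:**
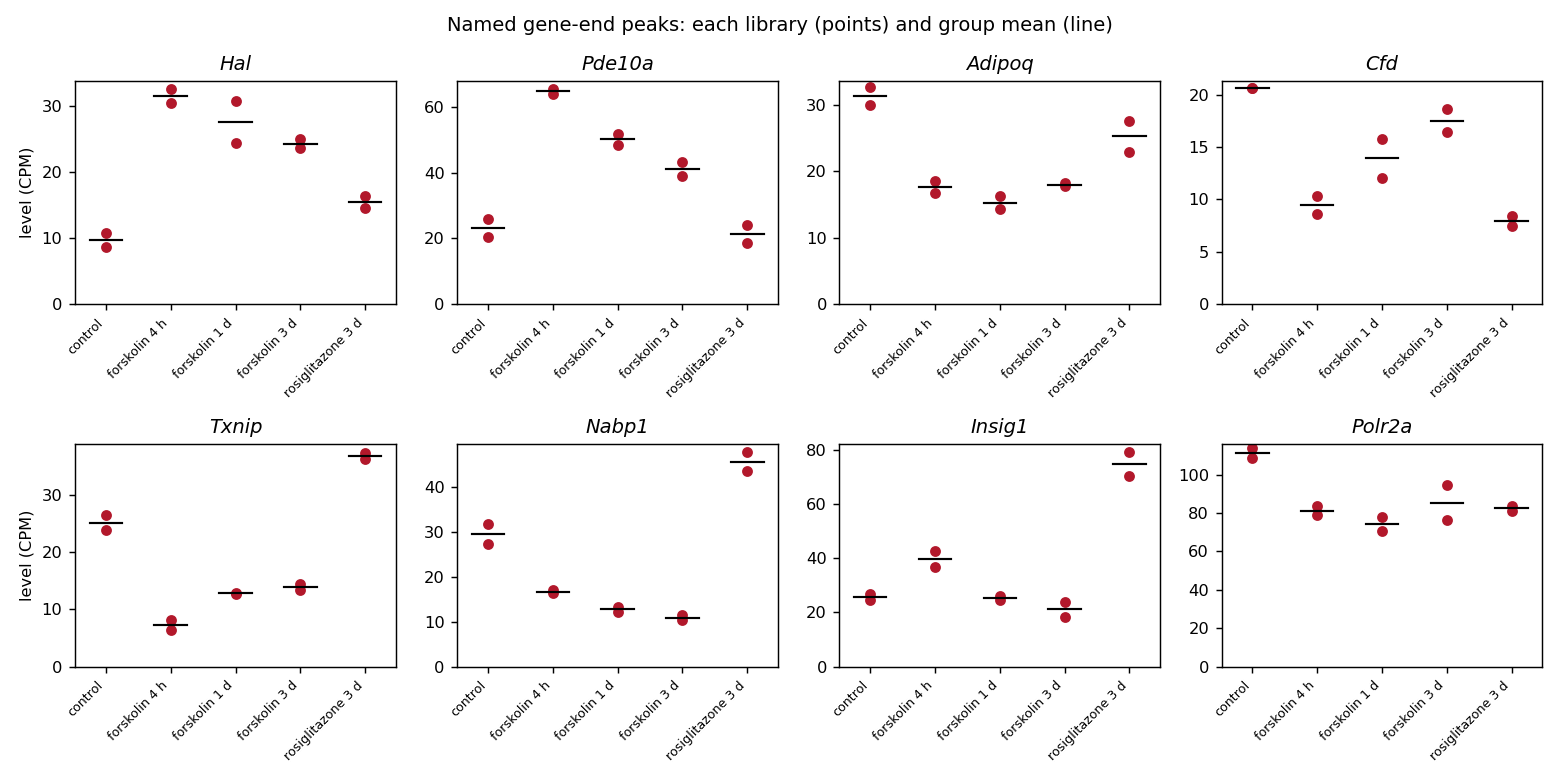
Level (CPM, axes from 0) of 8 named gene-end peaks in each library (points) with the mean of 2 (line), by group. Hal and Pde10a are highest in the forskolin libraries, Adipoq, Txnip and Nabp1 are lowest there, and Insig1 is highest with rosiglitazone at 79.1 and 70.4 CPM.

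Among the open peaks, forskolin and rosiglitazone at 3 days differed most at Nabp1 (-2.06 ± 0.14, log2 of forskolin over rosiglitazone), Insig1 (-1.82 ± 0.13), Habp2 (1.58 ± 0.15) and Txnip (-1.40 ± 0.14). Trpm3, an ion channel, was higher with forskolin by 1.28 ± 0.14, Tbc1d2b, a Rab regulator, by 1.18 ± 0.13, and Hp by 1.1 ± 0.14. The peak over a bound of Fabp4 (chr3:10208198-10208782) was at 29.1 and 27.0 CPM with forskolin and at 58.7 and 57.1 CPM with rosiglitazone, a difference of -1.04 ± 0.12. From 4 hours to 1 day of forskolin the largest rises among open peaks were at Adamts7 (1.04 ± 0.13), a matrix protease, Tbc1d2b (0.91 ± 0.12), Txnip (0.81 ± 0.15) and Hspb7 (0.78 ± 0.14), a small heat shock protein. Of these peaks, those at Adamts7, Txnip and Hspb7 had fallen at 4 hours against control. Over all settings their 4-hour log2 fold changes were -0.84 to -0.55, -1.98 to -1.63 and -0.80 to -0.65 in that order. The Txnip rise was not called without S3 (edgeR adjusted p = 0.056, with a range of 5.75e-05 to 0.056 over all settings). The largest falls among open peaks were at Kazald1 (-0.72 ± 0.12), at a peak shared by Flot1 and the early response gene Ier3 (-0.71 ± 0.12), at the AP-1 gene Fosl1 (-0.70 ± 0.13) and at the cytokine gene Clcf1 (-0.69 ± 0.11). All 4 of those peaks had risen at 4 hours, for Fosl1 from 16.3 and 11.8 CPM to 31.3 and 30.6 CPM.

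Of 30 gene-end peaks of the adipocyte and PPAR target list, 1 rose and 11 fell at 4 hours, 0 rose and 17 fell at 1 day, and 0 rose and 6 fell at 3 days (3 without S7, 13 without S8). Their median bin was 10, where 36.3% of gene-end peaks fell at 4 hours, 52.4% at 1 day and 10.7% at 3 days. The falls at 4 hours and 1 day were thus near the share for that level. The 1 rise was at Retn, the hormone resistin (0.39), named after its value was seen and lost without S2 or S4 and with DESeq2. With rosiglitazone 5 rose and 3 fell, and 13 were lower and 1 higher with forskolin than with rosiglitazone (8 and 1 without S7, 15 and 1 without S8). Of all gene-end peaks in bin 10, 0.20% rose and 5.85% fell with rosiglitazone. In the same bin 5.08% were lower and 1.75% higher with forskolin than with rosiglitazone. The list's median log2 fold change at 4 hours was -0.21, beside -0.22 over all gene-end peaks and -0.0040 over all tested peaks. At 1 day the 3 medians were -0.35, -0.24 and 0.04. The summed level of the adipocyte markers, some of which are on this list, was 266 and 283 CPM in control, 218 to 247 CPM with forskolin and 311 to 312 CPM with rosiglitazone, and its part in these counts was not tested. In bulk nuclei fewer cells of a type and less open chromatin per cell cannot be told apart. The promoter peak of Adipoq, the hormone adiponectin, was at 30.0 and 32.7 CPM in control and between 14.3 and 18.5 CPM in the 6 forskolin libraries, with 27.6 and 23.0 CPM under rosiglitazone. Its log2 fold change was -0.83 ± 0.14 at 4 hours and -1.04 ± 0.13 at 1 day. Cfd, the complement factor adipsin, fell at its start from 20.6 and 20.7 CPM to 8.62 and 10.3 CPM at 4 hours and was at 8.41 and 7.48 CPM with rosiglitazone. Lep, the hormone leptin, fell at its far bound by 1.56 on the log2 scale at 4 hours, from 10.5 and 12.2 CPM to 3.29 and 4.41 CPM. The 5 peaks that rose with rosiglitazone were at Fabp4, the lipid droplet proteins Plin1 and Cidec, the lipase inhibitor Angptl4 and the fatty acid importer Cpt1b. Their log2 fold changes were 0.61, 0.59, 0.67, 0.53 and 3.40, and Cpt1b started from 0.505 and 0.661 CPM. The call of Plin1 was lost without S1, S9 or S10 and with DESeq2, that of Cidec without S1, and that of Angptl4 without S1 or S10. The 3 that fell with rosiglitazone were Cfd (-1.38), Lep (-0.90), lost without S2 or S10, and Dgat2, an enzyme of triglyceride synthesis (-0.44), lost without S1, S2 or S9, with library size only, trended offsets and DESeq2. Cfd was also the 1 peak that was higher with forskolin than with rosiglitazone (1.14). Cidec, Angptl4, Cpt1b and Dgat2 were named after their values were seen.

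Of 29 peaks of the cAMP response list 3 rose and 4 fell at 4 hours, and 2 rose and 14 fell at 1 day. Over all gene-end peaks 23.1% fell at 4 hours, and in bin 10, the median bin of this list, 52.4% fell at 1 day, so the falls were no more frequent than elsewhere. Pde10a, Pde4b and the orphan receptor Nr4a3 (0.32) were the 3 that rose at 4 hours, and the early genes Jun (-0.34), Atf3 (-0.39), Dusp1 (-0.30) and Crem (-0.31) were the 4 that fell. All of these except Pde10a and Pde4b moved by less than 0.4 on the log2 scale. The list's median was -0.15 at 4 hours and -0.35 at 1 day. The 4-hour call of Nr4a3 was lost without S2, S3, S4 or S9 and with DESeq2. That of Jun was lost without S2, S3 or S4 and turned to 0.03 with trended offsets, and that of Atf3 was lost without S2 or S3 and with trended offsets. Those of Dusp1 and Crem were each lost in 11 of 16 alternatives, without S2, S3, S4, S5, S6, S9 or S10, with library size only, trended offsets and DESeq2, and without S1 for Crem or without the filter for Dusp1. Nr4a1, a sister receptor, was at 16.8 and 19.3 CPM in control and 17.2 and 17.3 CPM at 4 hours, a log2 fold change of -0.07 ± 0.15 that was not called. Nr4a3, Jun, Atf3 and Dusp1 were named after their values were seen.

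Of 19 peaks of thermogenic and brown fat genes, 0 rose and 3 fell at 4 hours, and 0 rose and 6 fell at 1 day. Over all gene-end peaks 23.1% and 28.6% fell. In bin 9, the median bin of this list, 18.2% fell at 4 hours and 14.9% at 1 day. The list's median level was 17.2 CPM, and in bin 10, which begins at 20.8 CPM, 52.4% fell at 1 day. The 6 falls of 19 at 1 day lay between the shares of bins 9 and 10, so no excess is read from them. A peak 295 bp from the far bound of Cox8b, a heart-type subunit of cytochrome oxidase, was at 4.04 and 5.62 CPM in control and 1.45 and 1.03 CPM at 4 hours (-1.97 ± 0.34). Adrb3, the adipocyte β-adrenergic receptor, was at 6.37 and 6.04 CPM in control, 2.17 and 3.51 CPM at 4 hours, 2.07 and 3.57 CPM at 3 days, and 8.68 and 9.21 CPM with rosiglitazone. Its 4-hour log2 fold change was -1.11 ± 0.27, which was not called without S3 (edgeR adjusted p = 0.0574, with a range of 0.000193 to 0.0574 over all settings). Kcnk3, a potassium channel named after its value was seen, was the other fall (-0.38), lost without S1, S2, S3 or S4 and with trended offsets. Rosiglitazone raised 2 peaks of the list, at Cpt1b and at the hormone gene Fgf21 (2.00), both from low levels and named after their values were seen. Ucp1, the uncoupling protein of brown fat, had no tested gene-end peak. The peaks at Ppargc1a, a coactivator of mitochondrial genes, and Cidea, a brown fat lipid droplet protein, were not called in any of the 4 comparisons with control.

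Housekeeping lists held falls and no rises with forskolin. Of 75 peaks of cytosolic ribosomal proteins, 0 rose in any of the 6 comparisons, and 13 fell at 4 hours and 41 at 1 day. Of 31 proteasome peaks 4 and 11 fell, of 41 peaks of RNA polymerase II and its general factors 16 and 22 fell, and of 71 oxidative phosphorylation peaks 14 and 30 fell. None of these 3 lists had a rise at 4 hours, 1 day or 3 days of forskolin or with rosiglitazone. The median log2 fold changes of the 4 lists, in that order, were -0.21, -0.20, -0.28 and -0.20 at 4 hours and -0.35, -0.29, -0.42 and -0.30 at 1 day. The median bin of these lists was 10, where 36.3% of all gene-end peaks fell at 4 hours and 52.4% at 1 day. Rises were rare over all gene-end peaks of that bin too. Their shares were 0.47%, 0.21% and 0.14% at 4 hours, 1 day and 3 days of forskolin and 0.20% with rosiglitazone. The promoter peak of Polr2a, the large subunit of RNA polymerase II, was at 109 and 114 CPM in control, 78.9 and 83.5 CPM at 4 hours and 70.6 and 77.9 CPM at 1 day, a log2 fold change of -0.46 ± 0.12 and then -0.58 ± 0.12. With trended offsets the 4-hour value was -0.15 (edgeR adjusted p = 0.133, with a range of 1.55e-05 to 0.133 over all settings), and the 1-day value -0.19 was not called either, so both calls depended on the scaling. Gapdh, Tbp, Pparg and Hprt were not called at 4 hours, with log2 fold changes of 0.05, 0.01, -0.23 and -0.26. Gapdh stood at -0.07 without S1, and Gapdh, Pparg and Hprt were called in 1, 1 and 3 of 16 alternatives.

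Over all gene-end peaks 23.1% fell at 4 hours and 28.6% at 1 day, and the shares at the level of the 4 lists that follow are given below. Of 24 interferon response peaks 0 rose and 12 fell at 4 hours, with a median of -0.39, among them Ifit2 (-0.68 ± 0.15) and Gbp3 (-0.60 ± 0.13), both antiviral genes. Of 29 peaks of extracellular matrix and actin genes, 1 rose and 12 fell at 4 hours. Thbs1, a matrix glycoprotein, was at 35.6 and 38.1 CPM in control and between 18.2 and 23.1 CPM in the 6 forskolin libraries. Acta2, smooth muscle actin, was at 15.0 and 16.3 CPM in control, between 7.92 and 11.5 CPM with forskolin, and at 15.0 and 15.6 CPM with rosiglitazone. The 1 matrix rise was Timp1, a protease inhibitor (0.47). Of 18 clock peaks 1 rose and 5 fell at 4 hours and 0 rose and 11 fell at 1 day. Tef, a clock output factor, was at 82.9 and 83.2 CPM in control and 48.9 and 49.7 CPM at 4 hours (-0.75 ± 0.12), and the clock repressor gene Nfil3 rose by 0.80. Timp1 and Nfil3 were named after their values were seen, and their calls were lost without S2 and without S1 in that order. Of 24 lipogenesis and cholesterol peaks 0 rose and 5 fell at 4 hours and 14 fell at 1 day. The matrix, clock and lipogenesis lists had a median bin of 10, where 36.3% of gene-end peaks fell at 4 hours and 52.4% at 1 day. At 4 hours the clock and lipogenesis falls lay below that share, and the 12 of 29 matrix falls were near it. At 1 day the 11 of 18 clock and 14 of 24 lipogenesis falls were near the share of that bin. The interferon list had a median bin of 9, where 18.2% fell at 4 hours and 14.9% at 1 day. Its median level was 19.3 CPM, close to the 20.8 CPM at which bin 10 begins, so the shares of bin 10 bear on it too. At 1 day 5 of its 24 peaks fell and 0 rose. Fasn, fatty acid synthase, was at 108 and 114 CPM in control and 60.9 and 72.8 CPM at 1 day, a log2 fold change of -0.74 ± 0.12.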

How the data were processed

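ATAC-seq was run on 10 libraries of differentiated MAP adipocytes. The authors deposited raw read counts per peak without normalization, 1 column per library. The submitters' processing notes name Bowtie2, featureCounts, MACS2, fastp, Picard, SAMtools and deepTools, and the builds GRCm38 and mm10. The handling of duplicates and of the transposase offset, the pooling of samples for peak calls, and the choice of reads or fragments were not given in the sources used here. Per the labels, 10000 nuclei entered each library, which was amplified for 12 cycles. Columns carry running numbers S1 to S10 that name a group but no labelled replicate.

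Counts were fitted with edgeR 4.0.16 in R 4.3.3 (TMM, filter by expression, robust quasi-likelihood) over 118954 peaks and all 10 libraries. Called means an adjusted p (Benjamini-Hochberg, all tested peaks) under 0.05, and SE derives from the F statistic. Totals ran from 10410233 to 18935287 counts. Matched-level values weight each bin by its gene-end peaks, and they carry no test. Gene bounds, starts and promoter sequences came from RefSeq (GRCm38.p6), matched by gene identifier. The procedure was tested on simulated data.

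Members, the 11 gene lists and the markers were chosen with earlier results of these data known. Peaks were named by rule: per comparison the 4 largest called changes in each direction among peaks at or above the median level whose groups did not overlap, 2 members per list by smallest p at 4 hours, and 18 fixed genes. Riken, Gm and olfactory receptor models and chromosome 18 were skipped in the ranking. Each list member is represented by its most open gene-end peak. Alternatives were library size alone, DESeq2 size factors, trended offsets, DESeq2 1.42.0, no filter, a fit of the compared groups, other definitions of gene ends and bins, and the omission of each library.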

Additional observations from a re-analysis of the deposited data

Results flagged for a closer look

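Gene-end peaks of 4 named genes moved in opposite directions with forskolin and with rosiglitazone at 3 days, and the direct comparison of the treatments passed the test at each (edgeR, adjusted over all peaks). The values below are log2 fold changes of forskolin over rosiglitazone. The Nabp1 peak stood at -2.06, with 11.5 and 10.3 CPM under forskolin, 27.4 and 31.8 CPM in control and 47.9 and 43.7 CPM under rosiglitazone. Txnip stood at -1.40, with 14.5 and 13.3 CPM, 23.9 and 26.5 CPM, and 37.4 and 36.2 CPM in the same order. The Fabp4 peak over a gene bound stood at -1.04, with 29.1 and 27.0 CPM, 38.4 and 37.3 CPM, and 58.7 and 57.1 CPM. Habp2 went the other way at 1.58, with 24.0 and 24.1 CPM under forskolin, 11 and 12.5 CPM in control and 8.61 and 7.48 CPM under rosiglitazone. In all 4 the 3 pairs of libraries did not overlap. Of the changes against control, the rosiglitazone fall of Habp2 was lost without S2, S9 or S10, with library size alone and with DESeq2 (edgeR or DESeq2 adjusted p from 0.0153 to 0.235 over all settings). The rosiglitazone rise of Txnip was lost without S1 or S9 (0.000400 to 0.0887). The forskolin fall of Fabp4 was lost without S1 or S2, with trended offsets and with only the compared groups fitted (0.0117 to 0.0857).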

How the results depend on the processing

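No paired analysis was possible because the column names carry running numbers S1 to S10 that tie to no labelled replicate number. Of the recomputed counts and matched differences, 299 stayed within 1.5 times the count or within the spread between libraries, and 85 moved. Library size as the only scaling, which took the median log2 fold change of all peaks from 0.04 to 0.19 at 1 day, from 0.01 to 0.11 at 3 days and from -0.0042 to 0.10 with rosiglitazone, gave 2237 falls at 4 hours, 954 rises and 2309 falls at 1 day, 551 falls at 3 days, and 438 rises and 325 falls with rosiglitazone. Trended offsets gave 1978, 1674 and 563 falls at 4 hours, 1 day and 3 days of forskolin, and 407 rises with rosiglitazone. DESeq2 gave 369 rises at 1 day, 249 at 3 days, 107 rises and 289 falls with rosiglitazone, 488 and 594 for forskolin over rosiglitazone, and 79 and 117 from 4 hours to 1 day. Fitting only the groups compared gave 411 falls at 3 days, 1139 falls with rosiglitazone, and 403 rises and 575 falls from 4 hours to 1 day. Smaller member sets gave fewer calls by construction, and their balance of rises and falls also differed. Within 500 bp the rises numbered 495, 342, 255, 160 and 497 at 4 hours, 1 day, 3 days, with rosiglitazone and for forskolin over rosiglitazone. Over a bound only they numbered 211, 136, 108, 82 and 267, with 627 falls in the last, and 111 rises and 123 falls from 4 hours to 1 day. Peaks of the middle 80% of widths gave 1424, 1531, 558 and 207 falls in the 4 comparisons with control. Bins cut on all 10 libraries gave matched differences of -0.16 at 4 hours and -0.18 at 1 day.

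When each library was left out in turn, which leaves 1 library in a group that is then assumed to vary like the others, rises ran from 613 to 941 at 4 hours, 358 to 656 at 1 day, 245 to 469 at 3 days, 110 to 312 with rosiglitazone, 490 to 1109 for forskolin over rosiglitazone and 74 to 297 from 4 hours to 1 day. Falls ran from 1126 to 5010, 1303 to 5603, 250 to 3568, 91 to 1290, 443 to 1587 and 61 to 502 in the same order. The matched difference ran from -0.0945 (without S8) to 0.0332 (without S7) at 3 days and from -0.0998 (without S8) to 0.0309 (without S7) for forskolin over rosiglitazone. Of 265 results for named peaks, 159 kept their call and direction in the 16 alternatives. The direction turned at Fabp4 (0.00088), Per1 (0.0541) and Jun (0.0298) at 4 hours and at Jun (0.13) at 1 day with trended offsets, and at Gapdh, whose 4-hour value ran from -0.0733 (without S1) to 0.196 (without S2) when single libraries were left out and was 0.25 with trended offsets. Calls at 4 hours ended for Rpl27 without S1 or S4, Psmd3 without S2 or S3, Cox4i1 without S2, Atp5g2 without S3 or with trended offsets, and Fasn with trended offsets or without S1, S2, S3 or S4. The cause of these changes was not tested. Depth limits the low bins, where the 2 libraries of a group differed more. Averaged over the 5 groups, the interquartile range of their log2 ratio over gene-end peaks was 1.13 in bin 1 against 0.18 in bin 10.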
